A study of Mus musculus with 12 samples.

Results

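The genes described here are the mitochondrial SLC25 carriers and the uncoupling proteins Ucp2 and Ucp3 in the mouse heart. They were taken as every gene whose symbol begins with Slc25a, plus Ucp2 and Ucp3, with pseudogenes left out and a mean of at least 10 raw counts over 12 libraries. Of 49 such symbols 41 reached that mean, out of 49315 genes in the files, and all 41 also passed the filter on low counts for testing. RNA was sequenced from heart tissue of wild-type female C57BL/6J mice in 4 groups of 3 libraries. Western diet postpartum females ate a diet with 45% of its calories from fat and 17% from sucrose for 15 weeks, were then bred, and were collected on day 1 after delivery. Western diet nonpregnant females ate the same diet and were not bred. Control diet postpartum females ate a diet with 10% of its calories from fat and were collected on day 1 after delivery, and control diet nonpregnant females ate that diet without breeding. The time on diet was given as 15 weeks in all 4 groups. All mice were 27 to 29 weeks old at collection, and the study asked how the heart is remodelled in pregnancy when the mother has a diet-induced early stage of metabolic syndrome. Nothing in the labels says that libraries of a group are separate animals, so p-values measure the spread between these libraries only. Since whole tissue was sequenced, fewer cells of a type and less RNA per cell cannot be told apart.

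SLC25 carriers are proteins of the inner mitochondrial membrane that exchange or co-transport nucleotides, phosphate, carboxylates, amino acids, acylcarnitines and cofactors between cytosol and matrix. Cardiac muscle makes most of its ATP in mitochondria, largely from fatty acids, so the adenine nucleotide carriers that export ATP, the phosphate carrier and the carnitine-acylcarnitine carrier handle its main fluxes. Uncoupling proteins are carriers of the same family, named after Ucp1, the heat-producing proton carrier of brown fat. Ucp3 is best known from skeletal muscle and heart and is induced when fatty acid supply is high, and Ucp2 is found in many tissues.

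Total counts were 22754591 to 29492416 per library, and the 41 genes took 0.851% to 0.971% of them. Normalised counts are in CPM, a unit that adjusts for library size. A count of 0 allows a level of up to 0.102 to 0.132 CPM, taking 3 counts as the limit, for counting error only. All 7 cardiomyocyte markers passed the filter, and their summed level was 63680 to 76570 CPM. Control diet postpartum replicate 3 held fat-cell transcripts, with Ucp1 at 73.1 CPM against at most 0.545 CPM in any other library. Control diet nonpregnant replicate 1 stood apart from its group, since a chi-square test of its counts against those of replicates 2 and 3 gave 15.2 and 15.0 per degree of freedom, and replicates 2 and 3 gave 3.76 against each other. These 2 control diet libraries were left out singly and together. This was followed for 58 pairs of a member and a comparison, those with an unadjusted p under 0.05 and some others. Printed values of these pairs that moved by over 1.5 times are also given without the libraries. Other printed values, such as those of Slc25a4 and Slc25a5 for pregnancy on the control diet, were not followed in this way. Western diet postpartum replicate 2 also stood apart, at 12.9 and 11.8 against replicates 1 and 3, which gave 6.49 against each other. The remaining within-group pairs ranged from 5.04 to 11.1, so no library pair agreed within sampling noise. The numbers in the sample titles run lower in postpartum than in nonpregnant samples, so sample order and pregnancy cannot be told apart.

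Ucp3 and Ucp2 are neighbours on mouse chromosome 7 (GRCm38), both on the plus strand, with Ucp3 at chr7:100472990-100486432 and Ucp2 at chr7:100493337-100502020, 6.9 kb further on. Slc25a20 lies at chr9:108662088-108684641 on the plus strand and Slc25a39 at chr11:102402985-102407946 on the minus strand. These 4 genes are the members that passed the test in some comparison, or, for Ucp3, had the largest fold change and spread. Their promoter windows are shown because the data turn on them, each from 250 bases before to 50 bases after the start that RefSeq gives on GRCm38.p6, read 5′ to 3′ on the gene's strand. The windows are chr7:100493108-100493407 (plus) for Ucp2, chr7:100472741-100473040 (plus) for Ucp3, chr9:108661886-108662185 (plus) for Slc25a20 and chr11:102407468-102407767 (minus) for Slc25a39. Capitals mark AGGTCA, the half-site of nuclear receptors such as PPAR alpha, or its reverse complement TGACCT.
Ucp2: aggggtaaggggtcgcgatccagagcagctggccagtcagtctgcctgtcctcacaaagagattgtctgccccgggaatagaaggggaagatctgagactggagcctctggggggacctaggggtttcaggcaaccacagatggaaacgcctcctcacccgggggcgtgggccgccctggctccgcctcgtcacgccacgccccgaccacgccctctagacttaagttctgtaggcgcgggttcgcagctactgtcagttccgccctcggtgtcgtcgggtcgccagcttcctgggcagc
Ucp3: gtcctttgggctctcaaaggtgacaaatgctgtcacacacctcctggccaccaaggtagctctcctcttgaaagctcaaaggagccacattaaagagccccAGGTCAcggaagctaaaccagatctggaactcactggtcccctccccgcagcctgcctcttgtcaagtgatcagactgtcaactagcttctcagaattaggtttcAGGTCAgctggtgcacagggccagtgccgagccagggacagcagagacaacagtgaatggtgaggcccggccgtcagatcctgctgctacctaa
Slc25a20: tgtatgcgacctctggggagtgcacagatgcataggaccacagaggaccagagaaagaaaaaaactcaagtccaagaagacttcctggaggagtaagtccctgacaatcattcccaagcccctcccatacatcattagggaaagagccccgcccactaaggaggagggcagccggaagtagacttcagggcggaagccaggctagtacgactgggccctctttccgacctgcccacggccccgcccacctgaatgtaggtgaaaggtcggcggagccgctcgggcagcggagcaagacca
Slc25a39: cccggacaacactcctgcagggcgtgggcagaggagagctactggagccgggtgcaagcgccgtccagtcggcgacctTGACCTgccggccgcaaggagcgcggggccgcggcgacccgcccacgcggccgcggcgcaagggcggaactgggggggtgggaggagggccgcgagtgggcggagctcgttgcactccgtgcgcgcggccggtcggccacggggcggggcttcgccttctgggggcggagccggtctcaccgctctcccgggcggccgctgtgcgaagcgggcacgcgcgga
Ucp3 held the half-site at -149 to -144 and again at -44 to -39 from its start, and Slc25a39 held it on the reverse strand at -172 to -167. The Slc25a39 window lies wholly inside the span counted for that gene, so its half-site does too. No half-site lay in the Ucp2 and Slc25a20 windows, which says only that these letters are not in these windows. RefSeq windows were found for 32 of the 41 genes, 41 windows in all, among 32851 windows of the same length. The half-site was in 5 of the 41 windows (12.2%, of Slc25a34, Slc25a39, Slc25a45, Slc25a47 and Ucp3), compared with 16.26% of all windows, both strands searched. A direct repeat, 2 copies of AGGNCA with 1 base between them (DR1), was in 0 of the 41 windows and 0.38% of all, and the extended half-site TNAAGGTCA, bound by estrogen-related receptors, in 0 of 41 and 1.28% of all. Both of these longer motifs can contain AGGTCA, so their counts are not separate from it. The E-box CACGTG was in 7 windows (17.07%, of Slc25a1, Slc25a13, Slc25a14, Slc25a15, Slc25a33 and Slc25a36), compared with 7.15% of all windows. The windows of Slc25a14 overlap and hold the same CACGTG, so that site was counted more than once. These matches are descriptions of letters, not binding sites.

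One carrier gene outweighed all others in these hearts. Slc25a4, the ADP/ATP carrier of heart and skeletal muscle, took 63.4% to 68.5% of the summed TPM (transcript abundance scaled for gene length and library size) of the 41 genes in every library. Its level was 4950 ± 158 TPM in Western diet postpartum hearts, 4379 ± 256 in Western diet nonpregnant hearts, 5113 ± 156 in control diet postpartum hearts and 4811 ± 337 in control diet nonpregnant hearts (SD, n = 3 each). Slc25a3, the phosphate carrier that supplies ATP synthase, came next at 610 to 711 TPM over the 12 libraries. Slc25a11, the oxoglutarate-malate carrier of the malate-aspartate shuttle, lay at 474 to 559 TPM, below every value of Slc25a3. Slc25a5, the more widely expressed ADP/ATP carrier, lay at 287 to 409 TPM, below every value of Slc25a11. The fifth was Slc25a34, a carrier of the oxaloacetate-carrier branch with less settled substrates, at 104 to 180 TPM. Slc25a39 (88.3 to 121 TPM), Slc25a20 (72.3 to 119.5 TPM), Slc25a13 (63.7 to 105 TPM) and Slc25a12 (63.3 to 81.4 TPM) followed. Slc25a39 lay above Slc25a12 in every library with no overlap in range, and Slc25a20 lay above Slc25a12 in all 12 libraries though their ranges overlapped. Slc25a13 overlapped in range with each of the other three. Ucp3 completed the 10 most abundant in control diet nonpregnant hearts at 38.7 ± 5.40 TPM (SD, n = 3), and ran from 20.0 to 115 TPM over all libraries.

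**Figure D1:**
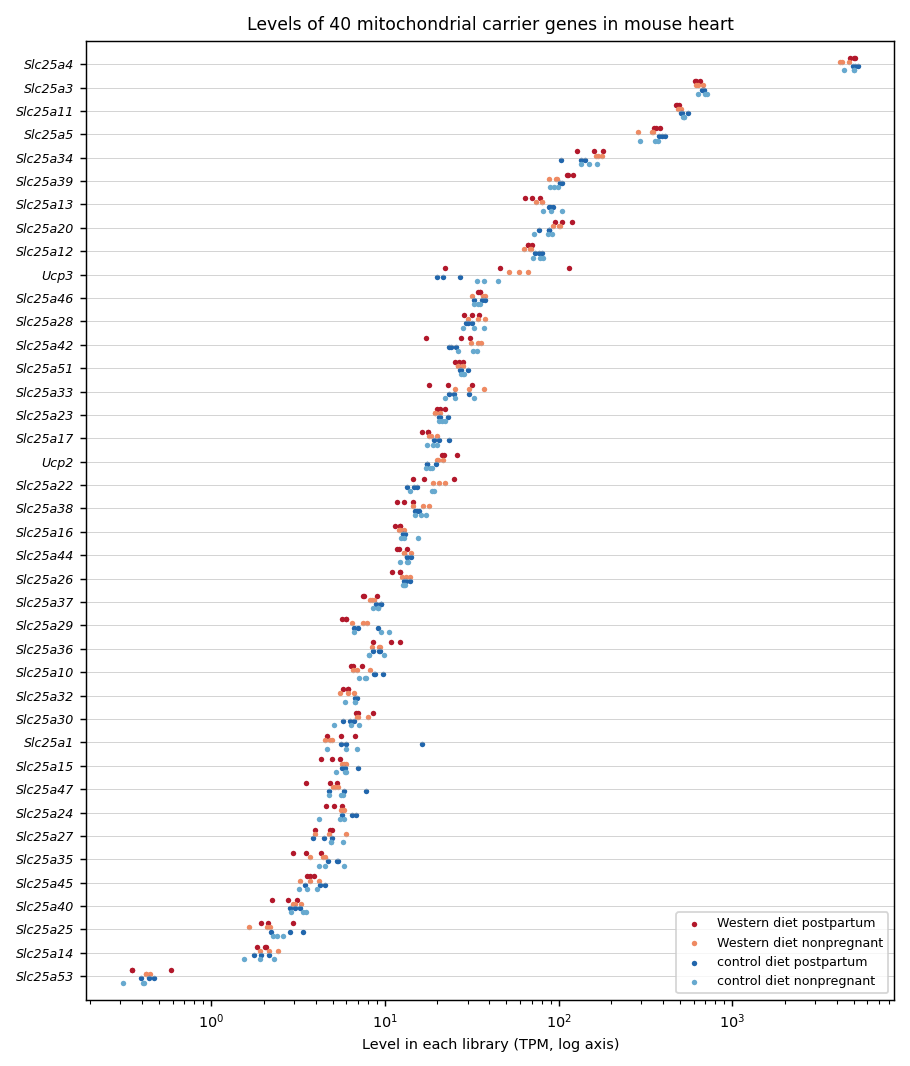
Level of 40 of the 41 carrier genes in each of the 12 heart libraries, in TPM on a log axis, ordered by the mean in control diet nonpregnant hearts and coloured by group. Slc25a4 lies between 4198 and 5276 TPM in every library, and Ucp3 has the widest spread, from 20.0 to 115 TPM.

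The low end of the family rested on few counts. Slc25a53, whose substrate is not assigned, lay at 0.311 to 0.589 TPM, with 27 to 50 raw counts per library. Slc25a14, a relative of the uncoupling proteins known from brain, lay at 1.55 to 2.43 TPM, with 40 to 75 raw counts. Ucp2, with 17.2 to 26.1 TPM, ranked 19th by its level in control diet nonpregnant hearts. By substrate, the 6 adenine nucleotide and phosphate carriers took 78.2% to 82.4% of the family's TPM and the 5 di- and tricarboxylate carriers 8.43% to 10.5%. The 6 amino acid carriers took 2.36% to 3.32%, the 9 cofactor and nucleotide carriers 1.81% to 2.59%, and the 4 iron and glutathione carriers 1.84% to 2.20%. The 4 carriers related to Slc25a20 took 1.26% to 1.76%, and the 5 uncoupling proteins and close relatives 0.667% to 2.09%, the widest relative range of the classes. In CPM over the 12 libraries Ucp3 had a coefficient of variation of 60.2% and Slc25a1 of 46.6%, while Slc25a51, the carrier of NAD, had 3.67%.

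Between groups, few members passed the test, and those that passed were Ucp2, Slc25a20 and Slc25a39, all higher on the Western diet or after pregnancy. All tests are two-sided F tests of edgeR's quasi-likelihood fit, adjusted over 15476 genes by the Benjamini-Hochberg method, with a threshold of 0.05. In Western against control diet postpartum hearts 1 of 41 members passed (Ucp2), compared with 0.879% of all genes. Of 41, 13 had an unadjusted p under 0.05 (14.6% of all genes), and 13 showed groups that did not overlap (19.1% of all genes). In Western against control diet nonpregnant hearts 0 of 41 passed (0.0582% of all genes), as also with DESeq2 and limma-voom. There 4 had an unadjusted p under 0.05 (9.58% of all genes) and 8 did not overlap (14.8% of all genes). For pregnancy (postpartum against nonpregnant hearts) on the Western diet 1 of 41 passed (Slc25a39), compared with 0.588% of all genes. There 7 had an unadjusted p under 0.05 (14.7% of all genes) and 7 did not overlap (19.6% of all genes). For pregnancy on the control diet 0 of 41 passed (0.239% of all genes), as also with DESeq2 and limma-voom, with 4 at an unadjusted p under 0.05 (12.5% of all genes) and 5 without overlap (17.1% of all genes). Averaged over pregnancy states, 2 members passed, Ucp2 and Slc25a20, both higher on the Western diet, compared with 1.38% of all genes. There 11 members had an unadjusted p under 0.05, compared with 14.3% of all genes. Averaged over diets, 1 member, Slc25a39, passed, higher postpartum, compared with 1.78% of all genes, and 6 had an unadjusted p under 0.05 (17.6% of all genes). The 4 single comparisons share groups with each other, so their counts are not independent.

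For the interaction of diet with pregnancy 0 of 41 members passed (0% of all genes), as also with DESeq2 and limma-voom, and 2 had an unadjusted p under 0.05 (8.98% of all genes). These were Slc25a39, with a difference of log2 fold changes of 0.27 (SE 0.10), and Slc25a24, with -0.36 (SE 0.16). Among members that did not pass, the log2 fold change between Western and control diet averaged over pregnancy states was 0.39 (SE 0.12) for Slc25a22, 0.32 (SE 0.09) for Slc25a30, 0.32 (SE 0.09) for Slc25a34, 0.16 (SE 0.05) for Slc25a39, -0.29 (SE 0.11) for Slc25a35 and -0.17 (SE 0.06) for Slc25a10. The log2 fold change between postpartum and nonpregnant hearts averaged over diets was 0.19 (SE 0.07) for Slc25a5, 0.14 (SE 0.06) for Slc25a4 and -0.19 (SE 0.06) for Slc25a38. These 9 averages had an unadjusted p under 0.05 and an edgeR adjusted p above it. On the interaction test, no member's response to one factor was shown to differ between levels of the other. As a family the carriers did not shift one way. The median log2 fold change of the 41 members between Western and control diet postpartum hearts was 0.00, with 22 above 0 and 19 below, against a median of 0.00 over all genes. The median absolute change there was 0.15 for the members and 0.12 for all genes. For the Western diet against the control diet in nonpregnant hearts these were 0.09 and 0.10, for pregnancy on the Western diet 0.09 and 0.12, and for pregnancy on the control diet 0.08 and 0.11.

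**Figure D2:**
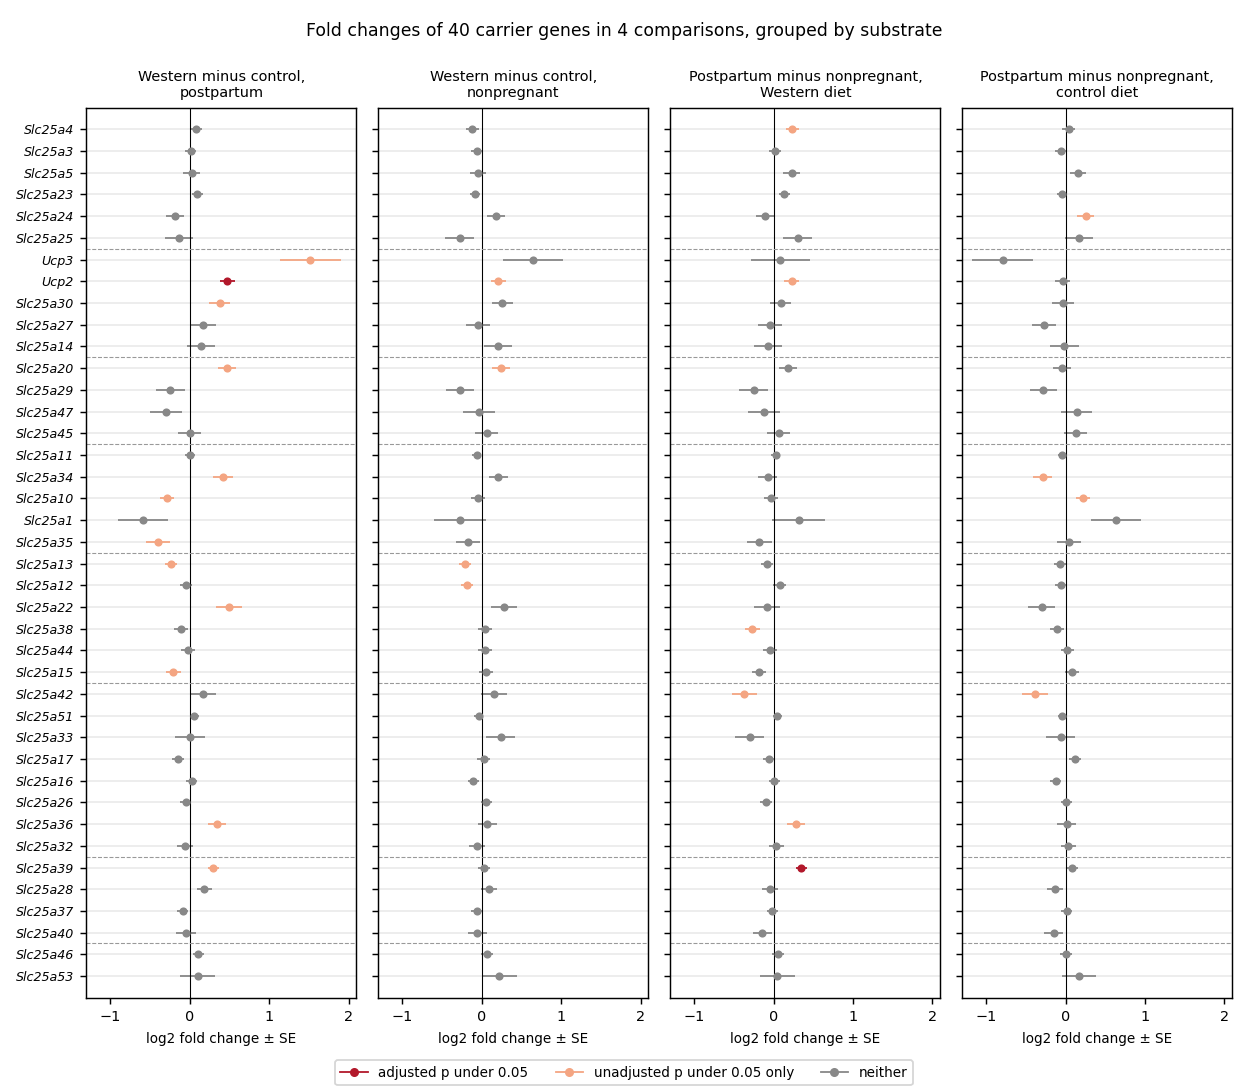
Log2 fold change with its SE for 40 of the 41 carrier genes in 4 comparisons, grouped by substrate (dashed lines), the first-named group of each panel over the second. Ucp2 in the first panel (0.47) and Slc25a39 in the third (0.35) are the points past the adjusted threshold, and Ucp3 has the largest value, 1.52, with an SE of 0.39.

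Among the uncoupling proteins, Ucp2, a carrier reported to export C4 metabolites and aspartate, was higher on the Western diet. Its normalised counts were 88.6, 69.1 and 73.3 CPM in Western diet postpartum hearts, against 53.5, 61.2 and 51.8 CPM in control diet postpartum hearts. All 3 Western diet values lay above all 3 control values. Ucp2 rose by 0.47 on the log2 scale (SE 0.09, 1.39-fold; edgeR adjusted p = 0.0323). The call was lost without Western diet postpartum replicate 1 (0.104) or 3 (0.0866), without control diet postpartum replicate 1 (0.119) or 3 (0.107), and, through the shared spread, without Western diet nonpregnant replicate 2 (0.05002) or 3 (0.0514). It was also lost without both control diet libraries that stood apart (0.0673). The fold change stayed between 0.36 and 0.54 when any 1 library was left out, with adjusted p between 0.00883 and 0.119. In nonpregnant hearts Ucp2 stood at 65.0, 68.5 and 63.9 CPM on the Western diet, against 51.4, 60.2 and 59.0 CPM on the control diet. These groups did not overlap either, at a log2 fold change of 0.21 (SE 0.09), which did not pass (adjusted p = 0.509). Averaged over pregnancy states, Ucp2 rose by 0.34 (SE 0.07; adjusted p = 0.0230) on the Western diet. That call was lost without Western diet nonpregnant replicate 2 (0.0719), without control diet postpartum replicate 1 (0.0555) or 3 (0.0533), and without both control diet libraries that stood apart (0.0640). The differences between postpartum and nonpregnant hearts were 0.23 (SE 0.09) on the Western diet and -0.03 (SE 0.09) on the control diet. Without Western diet postpartum replicate 1 the first was 0.11 (SE 0.09).

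Ucp2 is also expressed in macrophages and fat cells, so their markers are given beside it, with those of endothelial cells. The 7 macrophage and monocyte markers summed to 180 to 208 CPM in Western diet postpartum hearts, against 194 to 219 CPM in control diet postpartum hearts. The white adipocyte list, of which 6 of 8 passed the filter, summed to 757 to 836 CPM in Western diet postpartum hearts, against 516 to 753 CPM in control diet postpartum hearts. Most of that sum was Fabp4, at 676 to 748 CPM against 474 to 575 CPM, a fatty acid binding protein that endothelial cells also make. Lipe, also of that list, had 62.6, 86.7 and 79.5 CPM in Western diet postpartum hearts, against 40.0, 47.7 and 52.0 CPM in control diet postpartum hearts. With edgeR, 1 of the 6 tested genes of that list passed in this comparison (0.879% of all genes). All 6 had an unadjusted p under 0.05 (14.6% of all genes), DESeq2 called 3 and limma-voom 1. In the average over pregnancy states 2 passed with edgeR (1.38% of all genes). These counts are without regard to direction. Fabp4 and Lipe were higher on the Western diet, while Plin1, Cfd, Cidec and Adipoq were highest in control diet postpartum replicate 3. There Plin1, Cfd and Cidec had 12.2, 72.6 and 16.7 CPM, against at most 0.531, 1.43 and 0.490 CPM in Western diet postpartum hearts. The control sum of 753 CPM also came from that replicate. The defining fat-cell gene Adipoq was at 0.0438 to 0.327 CPM in Western diet postpartum hearts. In control diet postpartum hearts it was at 0.306, 0.543 and 19.6 CPM, the last in the library with fat-cell transcripts. The 6 endothelial markers summed to 845 to 992 CPM in Western diet postpartum hearts, against 842 to 851 CPM in control diet postpartum hearts. Of the 6, 0 passed in that comparison with edgeR (0.879% of all genes), and 3 had an unadjusted p under 0.05 (14.6% of all genes). DESeq2 called 1 and limma-voom 0. In the average over pregnancy states 2 of the 6 rose on the Western diet (1.38% of all genes called). These were Pecam1, an adhesion protein of endothelial junctions, at 0.21 (SE 0.04; edgeR adjusted p = 0.0221), and Tie1, an endothelial receptor, at 0.22 (SE 0.05; adjusted p = 0.0335). The averages of Cdh5, Kdr, Emcn and Vwf were 0.10, 0.06, 0.10 and -0.01, and none of them passed. Vwf had 0.43 (SE 0.15) for diet in postpartum hearts but -0.46 (SE 0.16) in nonpregnant hearts, and Kdr had -0.07 (SE 0.09) in postpartum hearts. The part of endothelial or other Fabp4-expressing cells in the Ucp2 difference was not tested. About 4.4% of the exon length of Ucp2 overlaps Dnajb13 on the opposite strand, whose reads cannot be told apart where counting ignored strand.

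**Figure D3:**
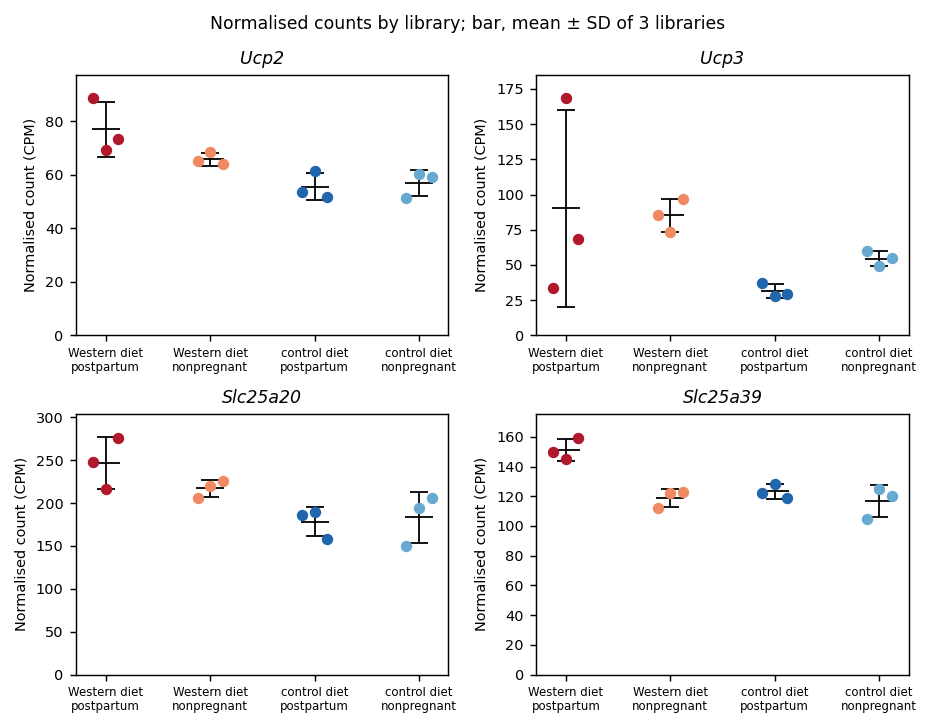
Normalised counts (CPM) of Ucp2, Ucp3, Slc25a20 and Slc25a39 in each library, by group, with the mean and SD of 3 libraries as black bars. The Western diet postpartum values lie above the control diet postpartum values for Ucp2, Slc25a20 and Slc25a39, while those of Ucp3 run from 33.9 to 168 CPM.

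Ucp3 had the largest fold change of the family and the widest scatter. Its normalised counts were 33.9, 168 and 68.5 CPM in Western diet postpartum hearts, against 37.3, 28.03 and 29.0 CPM in control diet postpartum hearts. Replicate 1 of the Western diet group lay within the control range and the other two lay above it, so the groups overlapped. The log2 fold change of 1.52 (SE 0.39) did not pass the test (edgeR adjusted p = 0.0794). Without Western diet postpartum replicate 2 it was 0.70 (adjusted p = 0.123), and without replicate 1 it was 1.91 (0.00718); DESeq2 gave 0.0487 on all libraries. Over all single libraries left out the adjusted p ran from 0.00718 to 0.206. In nonpregnant hearts Ucp3 stood at 85.4, 73.5 and 96.7 CPM on the Western diet, against 59.9, 48.9 and 54.6 CPM on the control diet. Those groups did not overlap, at a log2 fold change of 0.64 (SE 0.38; adjusted p = 0.635).

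The Western diet average of Ucp3 over both pregnancy states was higher by 1.08 (SE 0.27; adjusted p = 0.0668). It passed without Western diet postpartum replicate 1 (1.28, adjusted p = 0.00498) or 2 (0.67, 0.0336), and with DESeq2 (0.0451). On the control diet Ucp3 was lower in every postpartum library than in any nonpregnant library, at a log2 fold change of -0.79 (SE 0.39; adjusted p = 0.424). On the Western diet the postpartum libraries lay on both sides of the nonpregnant ones, at 0.08 (SE 0.37), and the value was -0.74 without Western diet postpartum replicate 2. The interaction for Ucp3 was 0.88 (SE 0.54) and did not pass, at 0.05 to 1.27 with 1 library left out. The ratio of Ucp3 to Ucp2 in TPM was 0.852, 5.44 and 2.08 in Western diet postpartum hearts, 2.93, 2.39 and 3.37 in Western diet nonpregnant hearts, 1.55, 1.02 and 1.25 in control diet postpartum hearts, and 2.60, 1.81 and 2.06 in control diet nonpregnant hearts. Ucp2 was thus the more abundant of the neighbours per length in 1 library, Western diet postpartum replicate 1.

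Targets of PPAR alpha, the fatty acid receptor that induces genes of fat oxidation in heart, were followed beside Ucp3, whose gene is a known target itself. The 27 listed genes also include regulators: Ppara itself, Ppargc1a and Esrra. Of the 27, 11 rose and 0 fell on the Western diet in postpartum hearts, compared with 0.879% of all genes called. The median log2 fold change was 0.39 against 0.00 over all genes (DESeq2 called 19 and limma-voom 10). Ppara had 30.4, 23.6 and 29.8 CPM in Western diet postpartum hearts, against 32.4, 29.0 and 36.0 CPM in control diet postpartum hearts. Of the same 27, 1 rose in nonpregnant hearts (0.0582% of all genes called), with a median of 0.20. In the average over pregnancy states 14 rose (1.38% of all genes called). The list was made with earlier results of these data known. Pdk4, the kinase that blocks pyruvate oxidation, had 481, 2084 and 1048 CPM in Western diet postpartum hearts, against 353, 169 and 189 CPM in control diet postpartum hearts. Angptl4, an inhibitor of lipoprotein lipase, had 7.92, 39.9 and 24.9 CPM in Western diet postpartum hearts, against 3.47, 3.33 and 2.89 CPM in control diet postpartum hearts. The library highest in Ucp3, Western diet postpartum replicate 2, was also the highest in Pdk4, Angptl4 and Ehhadh (22.85 CPM). Most other listed genes were instead lowest in replicate 2 within that group. Hadha had 1898 CPM there, against 2100 and 2365 CPM in replicates 1 and 3. Acaa2 had 912 CPM, against 1104 and 1175 CPM, and Acot1 31.0 CPM, against 43.3 and 70.3 CPM. Within that group Slc25a20 and Cpt2 were highest in replicate 3. Whether these genes and Ucp3 have a common source of variation was not tested.

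**Figure D4:**
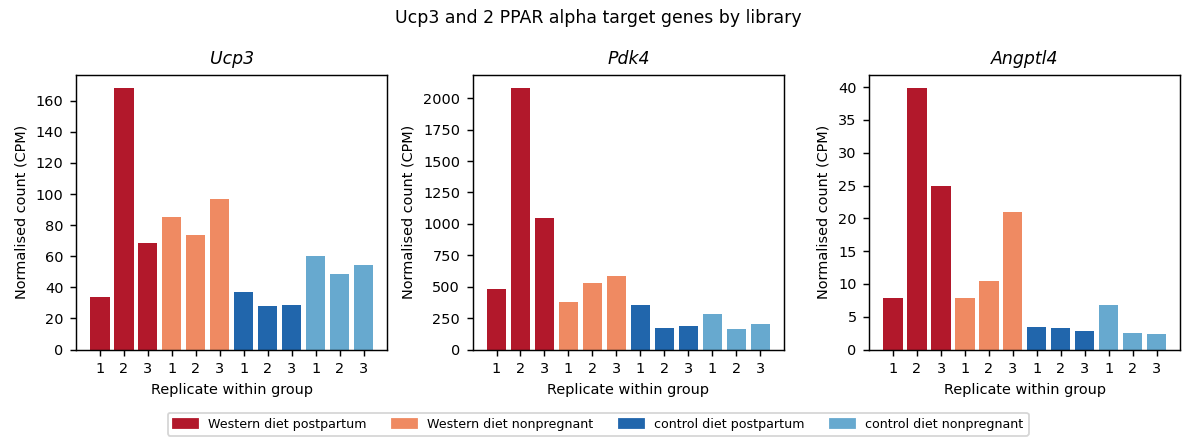
Normalised counts (CPM, linear axes from 0) of Ucp3 and of Pdk4 and Angptl4 in each of the 12 libraries, coloured by group; these 2 targets were chosen after their values were seen. Ucp3, Pdk4 and Angptl4 peak in Western diet postpartum replicate 2 (168, 2084 and 39.9 CPM). Most other listed genes, not drawn, were lowest in that replicate within the group.

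The remaining relatives of the uncoupling proteins were low. Slc25a30, described in kidney, had a log2 fold change of 0.38 (SE 0.13; adjusted p = 0.197) between Western and control diet postpartum hearts, and of 0.26 (SE 0.13) in nonpregnant hearts, with no overlap in either. Its levels were 5.64, 6.83 and 5.69 CPM in Western diet postpartum hearts, against 4.97, 4.38 and 4.58 CPM in control diet postpartum hearts. Slc25a27 and Slc25a14, known from brain, differed by 0.17 and 0.15 in that comparison. All 5 genes of the class were thus above 0 between Western and control diet postpartum hearts, with a median of 0.38. Of the 5, 1 passed the test (0.879% of all genes). All 5 were below 0 between control diet postpartum and control diet nonpregnant hearts, with a median of -0.03, and 0 of the 5 passed (0.239% of all genes).

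Slc25a20, the carnitine-acylcarnitine carrier that brings activated fatty acids into the matrix for oxidation, was higher on the Western diet. It had 247, 217 and 276 CPM in Western diet postpartum hearts, against 186, 189.9 and 159 CPM in control diet postpartum hearts. The groups did not overlap, and the log2 fold change was 0.47 (SE 0.11; edgeR adjusted p = 0.0696). It passed with DESeq2, without Western diet postpartum replicate 2 (0.0217) and without control diet nonpregnant replicate 1 (0.0196). In nonpregnant hearts it had 206.4, 219.7 and 226 CPM on the Western diet, against 150.1, 194 and 205.7 CPM on the control diet. Those groups were separate by a narrow margin, at 0.25 (SE 0.11; adjusted p = 0.513), and the value was 0.13 (SE 0.10) without control diet nonpregnant replicate 1. Averaged over pregnancy states Slc25a20 rose by 0.36 (SE 0.08; adjusted p = 0.0450) on the Western diet. That call was kept without replicate 2 of the Western diet postpartum group (0.0165) and without replicates 1 (0.0393) or 3 (0.0344) of the control diet nonpregnant group. It was lost without any of the other 9 libraries, with adjusted p from 0.0504 to 0.111, and the fold change stayed between 0.30 and 0.40. Without both control diet libraries that stood apart it was 0.26 (adjusted p = 0.0640). Pregnancy gave 0.18 (SE 0.11) on the Western diet (0.09 without replicate 3 of its postpartum group) and -0.04 (SE 0.11) on the control diet, neither of which passed.

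The other genes of the carnitine shuttle give the setting of Slc25a20. Of 6 measured genes of carnitine uptake, acyl activation and acyl transfer, all 6 were above 0 between Western and control diet postpartum hearts, with a median log2 fold change of 0.31 against 0.00 over all genes. None passed in edgeR (0 of 6, compared with 0.879% of all genes), though 5 had an unadjusted p under 0.05 (14.6% of all genes). DESeq2 called 2 and limma-voom 0. Cpt2, the transferase on the matrix side that takes over the acyl group delivered by Slc25a20, had 299.6, 269 and 319.7 CPM in Western diet postpartum hearts, against 229.7, 244 and 202 CPM in control diet postpartum hearts. The groups did not overlap, at 0.40 (SE 0.09; adjusted p = 0.0670). Averaged over pregnancy states Cpt2 rose by 0.29 (SE 0.07; adjusted p = 0.0489), the 1 gene of the 6 that passed (1.38% of all genes). The carriers most related to Slc25a20 did not pass. Slc25a29, a carrier of basic amino acids first described as an acylcarnitine carrier, had -0.24 (SE 0.18) in postpartum hearts and -0.27 (SE 0.18) in nonpregnant hearts. Slc25a47, a liver carrier, and Slc25a45 had -0.29 and 0.00 in postpartum hearts, and -0.03 and 0.06 in nonpregnant hearts.

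Slc25a39, the importer of glutathione into mitochondria, was the member that differed with pregnancy. It had 149.6, 145 and 159.5 CPM in Western diet postpartum hearts, against 112, 122 and 123 CPM in Western diet nonpregnant hearts. The groups did not overlap, and Slc25a39 rose by 0.35 (SE 0.07, 1.27-fold; edgeR adjusted p = 0.0470). The call was close to the threshold. It was kept without control diet nonpregnant replicate 1 (0.0186) or without Western diet postpartum replicate 2 (0.0201), and lost without any of the other 10 libraries, with adjusted p from 0.0556 to 0.192. The fold change stayed between 0.30 and 0.37. On the control diet it had 122, 128 and 119 CPM in postpartum hearts, against 105, 125 and 120 CPM in nonpregnant hearts. Those overlapped, at 0.08 (SE 0.07). Averaged over diets Slc25a39 rose by 0.21 (SE 0.05; adjusted p = 0.04996), again kept only without the same libraries (0.0305 and 0.0416) and lost without any of the other 10 (0.0544 to 0.110).

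Western against control diet postpartum hearts gave Slc25a39 a log2 fold change of 0.30 (SE 0.07; adjusted p = 0.0685) with no overlap. It passed with DESeq2, without Western diet postpartum replicate 2 (0.0406) and without control diet nonpregnant replicate 1 (0.0241). The nonpregnant hearts gave 0.03 (SE 0.07), and -0.04 without control diet nonpregnant replicate 1. Its higher value was thus seen in 1 of the 4 groups, the Western diet postpartum hearts, but the interaction did not pass (adjusted p = 0.475). Its close paralog Slc25a40 had 11.2, 12.2 and 8.95 CPM in Western diet postpartum hearts, against 11.4, 11.6 and 12.6 CPM in Western diet nonpregnant hearts, and these overlapped. The ratio of Slc25a40 to Slc25a39 in TPM was 0.0236 ± 0.0047 in Western diet postpartum hearts, 0.0329 ± 0.0014 in Western diet nonpregnant hearts, 0.0297 ± 0.0025 in control diet postpartum hearts and 0.0348 ± 0.0020 in control diet nonpregnant hearts (SD, n = 3 each). The mitochondrial iron importers Slc25a37, best known from red cell precursors, and Slc25a28, its counterpart in other tissues, differed by -0.02 and -0.05 between Western diet postpartum and nonpregnant hearts. In postpartum hearts Slc25a28 had 0.19 (SE 0.10) for the Western against the control diet, and its groups did not overlap. Since Slc25a39 is also abundant in red cell precursors, the erythroid markers are given, and all 6 passed the filter. They summed to 391, 730 and 422 CPM in Western diet postpartum hearts, against 346, 507 and 452 CPM in Western diet nonpregnant hearts. Their part in the result was not tested.

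The carriers of ATP production differed little by diet. Slc25a4 had 5733, 5238 and 5690 CPM in Western diet postpartum hearts, against 5245, 5549 and 4974 CPM in control diet postpartum hearts, and these overlapped. In Western diet nonpregnant hearts it had 4542, 4985 and 4617 CPM, below all 3 Western diet postpartum values. That log2 fold change was 0.24 (SE 0.08; adjusted p = 0.198), and the one for pregnancy on the control diet was 0.04 (SE 0.08). Slc25a5 had 0.23 (SE 0.11) for pregnancy on the Western diet and 0.16 (SE 0.11) on the control diet. On the control diet it had 294.7, 290.4 and 265.6 CPM in postpartum hearts, against 207.2, 282.2 and 274.5 CPM in nonpregnant hearts. The lowest of these came from control diet nonpregnant replicate 1, which stood apart. About 33.8% of its 50-base stretches also occur in pseudogenes such as Gm5560 and Gm5529, so its count is uncertain. The ratio of Slc25a5 to Slc25a4 in TPM lay between 0.0664 and 0.0813 in all 12 libraries. The log2 fold changes of Slc25a3 lay between -0.06 and 0.02 in the 4 single comparisons. Of the calcium-regulated ATP-Mg/phosphate carriers Slc25a23, Slc25a24 and Slc25a25, Slc25a24 had 0.25 (SE 0.11; adjusted p = 0.376) for pregnancy on the control diet, with no overlap, and 0.14 without control diet nonpregnant replicate 3.

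Carriers of di- and tricarboxylates gave values of both signs with diet, and none passed with edgeR. Slc25a34 had 167, 224 and 203 CPM in Western diet postpartum hearts, against 165, 160.3 and 118 CPM in control diet postpartum hearts. The groups did not overlap, at 0.42 (SE 0.12; adjusted p = 0.117), and the value was 0.28 (SE 0.11) without control diet postpartum replicate 3. DESeq2 called Slc25a34 there (adjusted p = 0.0355) and in the average over pregnancy states (0.0199). In nonpregnant hearts the value was 0.21 (SE 0.12), also without overlap. Slc25a34 also was lower in every control diet postpartum library than in any control diet nonpregnant library, at -0.29 (SE 0.12; adjusted p = 0.353). That value was -0.14 (SE 0.11) without control diet postpartum replicate 3, and -0.11 without both control diet libraries that stood apart. Slc25a10, the dicarboxylate carrier, had 10.7, 11.9 and 10.9 CPM in Western diet postpartum hearts, against 13.3, 13.3 and 14.2 CPM in control diet postpartum hearts. Its log2 fold change was -0.29 (SE 0.09; adjusted p = 0.140), and for pregnancy on the control diet it was 0.21 (SE 0.09; adjusted p = 0.339). Slc25a35, a relative of Slc25a34, had -0.40 (SE 0.15; adjusted p = 0.233) in postpartum hearts. About 31.3% of its exon length overlaps Rangrf on the opposite strand, so its count is uncertain. Those of Slc25a11 lay between -0.06 and 0.02 in the 4 single comparisons.

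Slc25a1, the citrate carrier that supplies carbon for lipid synthesis, was set by 1 library. It had 5.92, 6.87 and 4.84 CPM in Western diet postpartum hearts, against 5.69, 5.47 and 15.2 CPM in control diet postpartum hearts. The value of 15.2 CPM came from the library with fat-cell transcripts. With it the log2 fold change was -0.59 (SE 0.31; adjusted p = 0.423), and without it 0.07 (SE 0.17; adjusted p = 0.921). For pregnancy on the control diet the value was 0.63 (SE 0.31) with that library and -0.03 (SE 0.17) without it.

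Among amino acid carriers, Slc25a13 (citrin), an aspartate-glutamate exchanger of the malate-aspartate shuttle, was lower on the Western diet without passing the test. It had 117, 139 and 127 CPM in Western diet postpartum hearts, against 155, 151 and 143 CPM in control diet postpartum hearts. In nonpregnant hearts it had 139, 127 and 140.4 CPM on the Western diet, against 171, 157 and 143 CPM on the control diet. Neither pair of groups overlapped, at -0.23 (SE 0.08; adjusted p = 0.179) and -0.21 (SE 0.08; adjusted p = 0.407), and the average over pregnancy states was -0.22 (SE 0.05; adjusted p = 0.0648). DESeq2 called that average, and it passed with edgeR when replicate 2 of the Western diet postpartum group (0.0272) or replicate 3 of the control diet nonpregnant group (0.0429) was left out. Without control diet nonpregnant replicate 1 the nonpregnant value was -0.14 (SE 0.08). Slc25a12 (aralar), the exchanger known from heart and brain, had -0.05 (SE 0.08) in postpartum and -0.18 (SE 0.08) in nonpregnant hearts, the second at -0.12 without control diet nonpregnant replicate 3. The ratio of Slc25a13 to Slc25a12 in TPM was 1.04 ± 0.11 in Western diet postpartum and 1.17 ± 0.10 in Western diet nonpregnant hearts. It was 1.18 ± 0.03 in control diet postpartum and 1.20 ± 0.24 in control diet nonpregnant hearts (SD, n = 3 each). Slc25a12 thus did not outweigh Slc25a13 in RNA per length. Of the 4 enzymes of that shuttle 0 passed in any comparison by edgeR, DESeq2 or limma-voom, with at most 1 at an unadjusted p under 0.05.

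Slc25a22, a glutamate carrier, had 42.1, 69.6 and 48.3 CPM in Western diet postpartum hearts, against 40.0, 36.1 and 37.5 CPM in control diet postpartum hearts. The groups did not overlap, at 0.49 (SE 0.17; adjusted p = 0.1799), and the value was 0.25 (SE 0.14) without Western diet postpartum replicate 2. DESeq2 called the average over pregnancy states (adjusted p = 0.0390). Slc25a38, which carries glycine for heme synthesis, had -0.27 (SE 0.09; adjusted p = 0.192) for pregnancy on the Western diet. Slc25a15, the ornithine carrier, had -0.20 (SE 0.09; adjusted p = 0.322) for diet in postpartum hearts, with -0.12 without Western diet postpartum replicate 1 and -0.13 without control diet postpartum replicate 3. Slc25a44, the carrier of branched-chain amino acids, had values between -0.04 and 0.05 in the 4 single comparisons.

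Of the 9 cofactor and nucleotide carriers 0 passed in any comparison with edgeR, and none had an unadjusted p under 0.05 for diet in nonpregnant hearts or for the interaction. Slc25a42, a carrier of coenzyme A, had lower means postpartum on both diets. It had 50.4, 86.8 and 78.1 CPM in Western diet postpartum hearts, against 85.8, 93.8 and 98.1 CPM in Western diet nonpregnant hearts, and 61.0, 68.8 and 61.5 CPM in control diet postpartum hearts, against 67.5, 87.8 and 94.5 CPM in control diet nonpregnant hearts. Both pairs of groups overlapped, at -0.37 (SE 0.16; adjusted p = 0.307) and -0.38 (SE 0.16; adjusted p = 0.343), and the average over diets was -0.38 (SE 0.11; adjusted p = 0.106). Without Western diet postpartum replicate 1 the first was -0.17 (SE 0.12). DESeq2 called the average, and it passed with edgeR when replicate 2 of the Western diet postpartum group (0.0363) or replicate 1 of the control diet nonpregnant group (0.0460) was left out. Slc25a33 and Slc25a36 carry pyrimidine nucleotides. Slc25a36 had 56.6, 38.0 and 49.4 CPM in Western diet postpartum hearts, against 38.8, 40.1 and 34.8 CPM in control diet postpartum hearts (0.34, SE 0.11; adjusted p = 0.179), while Slc25a33 had 0.00 (SE 0.19). For pregnancy on the Western diet Slc25a36 had a log2 fold change of 0.28 (SE 0.11; edgeR adjusted p = 0.278). Without Western diet postpartum replicate 2 these values were 0.48 for diet (adjusted p = 0.0105) and 0.42 for pregnancy (adjusted p = 0.0223), and without replicate 1 they were 0.21 and 0.14. About 14.9% of the exon length of Slc25a33 overlaps Gm13068 on the opposite strand. Slc25a51 had values between -0.04 and 0.06, and Slc25a16, Slc25a17, Slc25a26 and Slc25a32 lay between -0.15 and 0.11 in the 4 single comparisons. Slc25a46, a protein of the outer membrane that shapes mitochondria, had 75.2, 71.9 and 71.9 CPM in Western diet postpartum hearts, against 69.5, 63.4 and 69.9 CPM in control diet postpartum hearts (0.11, SE 0.07).

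**Figure D5:**
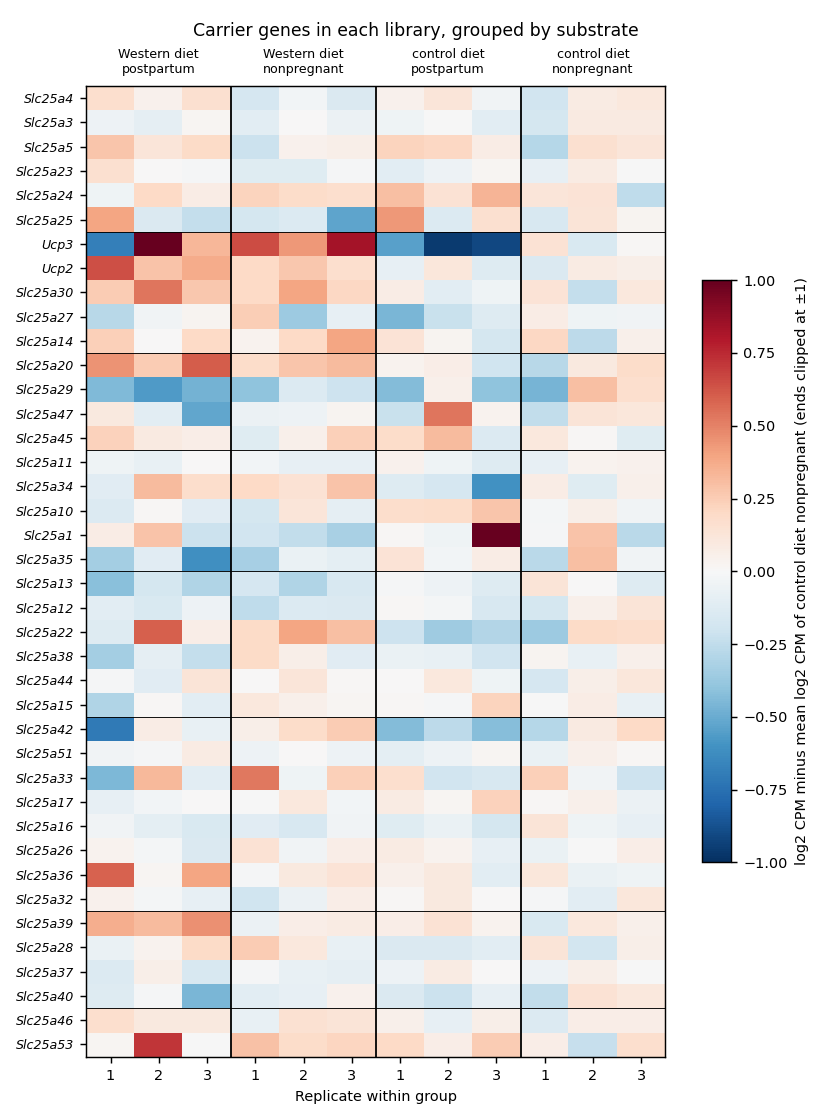
Log2 CPM of 40 of the 41 carrier genes in each library minus the gene's mean in control diet nonpregnant hearts, grouped by substrate (black lines), with colours clipped at -1 and 1. Ucp3 varies most within Western diet postpartum hearts, and Slc25a1 stands out in control diet postpartum replicate 3.

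No gene passed the test in the other mitochondrial transport lists. Of 16 genes that import carriers into mitochondria (the TIM and TOM complexes that insert SLC25 proteins) 0 rose and 0 fell in any of the comparisons, with medians between 0.01 and 0.06. At most 4 of them had an unadjusted p under 0.05 in a comparison, DESeq2 called at most 1 and limma-voom 0. Of 13 measured genes such as those of the pyruvate carrier, sideroflexins and outer-membrane channels 0 passed with edgeR, DESeq2 or limma-voom, with at most 3 at an unadjusted p under 0.05. Of 9 genes of the calcium uniporter 0 passed with any of these tools, with at most 1 at an unadjusted p under 0.05. Over all genes, by comparison, 0% to 1.78% passed with edgeR and 8.98% to 17.6% had an unadjusted p under 0.05.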

How the data were processed

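The files hold raw read counts per gene for 12 heart libraries, as deposited, with no normalization. Per the submitters' processing notes, the tools were featureCounts (Subread 1.5.2), STAR 2.5.2b and FastQC, and the genome build was GRCm38 (mm10). RNA came from a Qiagen RNeasy extraction and libraries from the NEBNext Ultra RNA kit, per the labels' protocols. Annotation release and strand setting were not given in the sources used here. Overlapping genes and near-identical copies may therefore share counts. Samples were grouped by their labels.

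Symbols came from a GENCODE gene table; 345 gene identifiers had none (0.0218% to 0.0248% of counts). The filter filterByExpr of edgeR, given the groups, a minimum count of 10 and a minimum total of 15, kept 15476 genes. CPM use library sizes after TMM scaling, and TPM also use the exon lengths in the files. One edgeR 4.0.16 quasi-likelihood model (R 4.3.3; biological coefficient of variation 9.62%) held a mean per group, and 7 contrasts were tested two-sided, each with Benjamini-Hochberg adjustment over all genes. Each standard error is the log2 change divided by the root of F. The procedure was tested on simulated data.

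Members and lists were chosen with earlier results of these data known. The text names each member past an adjusted p of 0.05, up to 5 higher and 5 lower members with the smallest unadjusted p under 0.05 in a comparison, the 10 most abundant, and 15 followed members: Slc25a3, Slc25a4, Slc25a5, Slc25a11, Slc25a12, Slc25a13, Slc25a20, Slc25a28, Slc25a33, Slc25a37, Slc25a39, Slc25a42, Slc25a51, Ucp2 and Ucp3. One member and 1 listed gene are counted but not reported here. Values near 0 of followed members are left out in part. Members outside the rule were named after their values were seen. Alternatives were DESeq2 1.42.0, limma-voom (limma 3.58.1), other size factors, filters and library sets, and each library left out.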

Additional observations from a re-analysis of the deposited data

How the results depend on the processing

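No paired analysis was possible because replicate numbers were given in accession order and pair no samples. With no filter on low counts, the members called were 5 for pregnancy on the control diet, 6 for pregnancy on the Western diet, 10 for diet in postpartum hearts, 3 for diet in nonpregnant hearts, 1 for the interaction (Ucp3), 8 for pregnancy averaged over diets and 8 for diet averaged over pregnancy states. In that fit the SE of Ucp3 for diet in postpartum hearts was 0.08, against 0.39 with the filter. DESeq2 called 5 members for diet in postpartum hearts, 2 for averaged pregnancy and 6 for averaged diet. A fit of only the groups compared called 0 for pregnancy on the Western diet and 0 for diet in postpartum hearts, and limma-voom called 0 for pregnancy on the Western diet. Leaving out both control diet libraries that stood apart, replicate 3 postpartum and replicate 1 nonpregnant, the counts were 0 for diet in postpartum hearts, 0 for averaged pregnancy and 0 for averaged diet. With 1 library left out, counts ran from 0 to 0 for pregnancy on the control diet, 0 to 3 for pregnancy on the Western diet, 0 to 5 for diet in postpartum hearts, 0 to 0 for diet in nonpregnant hearts, 0 to 0 for the interaction, 0 to 4 for averaged pregnancy and 0 to 5 for averaged diet. Each upper end above 0 came without Western diet postpartum replicate 2. The sign turned for Ucp3 in pregnancy on the Western diet (-0.21 with limma-voom, and -0.74 to 0.47 with 1 library left out, of which replicate 2 of the Western diet postpartum group gave -0.74 and replicate 2 of the Western diet nonpregnant group -0.016) and for Slc25a39 in diet in nonpregnant hearts (-0.038 to 0.083 with 1 library left out, the lowest without control diet nonpregnant replicate 1, and -0.039 without those 2 libraries). It also turned for Slc25a1 in diet in postpartum hearts (-0.84 to 0.073 with 1 library left out, the highest without control diet postpartum replicate 3, and 0.071 without those 2) and in pregnancy on the control diet (-0.028 to 0.88, the lowest without that library, and -0.045 without those 2). Over 58 pairs of a member and a comparison, 1086 alternatives kept direction and side of the threshold, 55 newly passed, 45 no longer passed and 9 turned sign. The cause was not tested. Calls over all genes also moved, and the 3 libraries per group limit what can be called: diet in postpartum hearts gave 136 genes, 1048 with no filter, 437 with DESeq2, and 30 to 490 with 1 library left out.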

Other observations

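The symbols left out for low counts hold 1 value that stands apart. Slc25a31, the ADP/ATP carrier of germ cells, had 36 raw counts in control diet postpartum replicate 3, the library with Ucp1 and Adipoq transcripts (73.1 and 19.6 CPM), and 3 to 18 counts in the other 11 libraries. Slc25a48 had 4 counts in that library and 0 in every other one, and Slc25a41 had 3 counts in Western diet postpartum replicate 3 and 0 in every other one. Slc25a18, a glutamate carrier, had 4 to 13 counts per library. Slc25a29 and Slc25a47, neighbours on chromosome 12 at 15.2 kb from each other on opposite strands, had log2 fold changes of -0.24 and -0.29 for diet in postpartum hearts, neither of which passed.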
